A study of Mus musculus with 8 samples.

Results

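The miR-181 family was followed through its 4 mature guide arms, mmu-miR-181a-5p, mmu-miR-181b-5p, mmu-miR-181c-5p and mmu-miR-181d-5p (written without the species prefix from here on), which are 4 of the 1281 mature miRNAs in the deposited tables. Members were chosen by name, and the entries of separate precursors were summed, so that 6 table entries from 6 precursors gave 4 values per library. The family was put forward with earlier results of these data known, so its levels are descriptions and its p-values, taken from fits over all miRNAs, are not independent evidence. The tissue was calvaria, the parietal and frontal bones of the skull vault, in 3 libraries from C57BL/6 female mice, 2 to 3 days old and positive for Prrx1-Cre (a Cre recombinase driven by a promoter of limb and cranial mesenchyme), after 20 minutes in collagenase with trypsin. It was set against 5 libraries of MC3T3 E1 sc4, a cloned mouse calvarial pre-osteoblast line, titled day 0, the undifferentiated state, and days 6, 10, 17 and 24, the later days with 50 µg/ml ascorbic acid and 4 mM β-glycerol phosphate in the medium. Each MC3T3 library pooled RNA of 3 cultures, so there was 1 library per day, and no label ties a calvaria library to an animal of its own. P-values therefore describe sample-to-sample spread here, which may be technical. In the fit of calvaria against MC3T3, the spread of the MC3T3 libraries also holds their change over days. Values are estimated read counts and RPM, the count per 1e6 counts of the library total.

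A miRNA guide arm is loaded into an Argonaute protein and directs it to messenger RNAs that pair with the seed, the bases near the 5′ end of the miRNA. The other strand of the hairpin, the passenger arm, is usually degraded, and its level therefore reports on a precursor only in part. The miR-181 family is best known from lymphocytes, where miR-181a tunes the response to antigen, and it is abundant in brain. In bone cells miR-181a has been reported to promote osteoblast differentiation by repressing components of TGF-β signalling.

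The 4 guide arms are shown because their near identity decides which of them a read can be assigned to. All 4 shared 1 seed, bases 2 to 8, which is in capitals here (RefSeq, GRCm38.p6).
miR-181a-5p: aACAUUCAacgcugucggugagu
miR-181b-5p: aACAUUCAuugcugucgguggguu
miR-181c-5p: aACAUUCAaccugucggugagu
miR-181d-5p: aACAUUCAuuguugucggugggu
Outside the seed the pairs were unequal. miR-181c-5p had no substitution against miR-181a-5p and lacked 1 internal base. Within its 23 bases, miR-181d-5p differed from miR-181b-5p by C12U alone, counted from the 5′ end of miR-181b-5p, which is 1 base longer. miR-181a-5p and miR-181b-5p differed by A9U, C10U and A21G, counted likewise from the 5′ end of miR-181a-5p.

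The 6 precursors lie in 3 clusters of GRCm38, the build (mm10) named in the submitters' notes. Mir181a-1 (chr1:137966455-137966541) and Mir181b-1 (chr1:137966639-137966718) are on the plus strand with 97 bases between them, in an intron of the noncoding gene Gm4258 and overlapping an exon of the lincRNA A430106G13Rik, per GENCODE M21. Mir181a-2 (chr2:38852735-38852810) and Mir181b-2 (chr2:38853830-38853918) are on the plus strand, 1019 bases apart, within an intron of Nr6a1, an orphan nuclear receptor gene on the opposite strand, and Mir181b-2 also overlaps an exon of Gm44144 on that strand. Mir181c (chr8:84178873-84178961) and Mir181d (chr8:84178716-84178787) are 85 bases apart on the minus strand, in an intron of Nanos3, a germ cell RNA-binding protein gene of the same strand. The a-1/b-1 and a-2/b-2 clusters yield the same 2 guide arms, whereas miR-181c-5p and miR-181d-5p come from the c/d cluster alone.

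Both kinds of cluster had higher mean levels in calvaria than in MC3T3, the c/d cluster by the larger ratio. The c/d cluster summed to 477.9 ± 8.16 RPM in calvaria (SD, n = 3) and 10.59 ± 2.31 RPM in MC3T3 (SD over the 5 days), a ratio of 45.1. The a/b clusters summed to 14615 ± 954 RPM in calvaria and 5973 ± 3558 RPM in MC3T3, a ratio of 2.45, which was 1.26 against the day 24 library alone. The order miR-181a-5p, miR-181b-5p, miR-181d-5p, miR-181c-5p by RPM was the same in 8 of 8 libraries. As a whole the family took 1.41% to 1.60% of the calvaria counts and 0.355% to 1.16% of the MC3T3 counts. In bulk samples like these, fewer cells of a type and less RNA per cell cannot be told apart.

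Differences of this direction were common among all miRNAs. Of the 471 tested, 35.5% were higher in calvaria, 28.7% were lower and 64.1% differed either way at an adjusted p under 0.05 (edgeR, Benjamini-Hochberg), and the median log2 difference, calvaria minus MC3T3, was 0.06. In counts these were 167 higher and 135 lower, or 142 and 192 with upper quartile factors, which moved the median to -0.37. All 3 calvaria RPM values exceeded all 5 MC3T3 values in 39.5% of miRNAs, and among the members this held for miR-181a-5p, miR-181c-5p and miR-181d-5p. Large differences were not particular to the c/d cluster. By fitted log2 difference from the top, miR-181c-5p stood 87th and miR-181d-5p 92nd, with miR-181a-5p at 149th and miR-181b-5p at 160th.

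**Figure D1:**
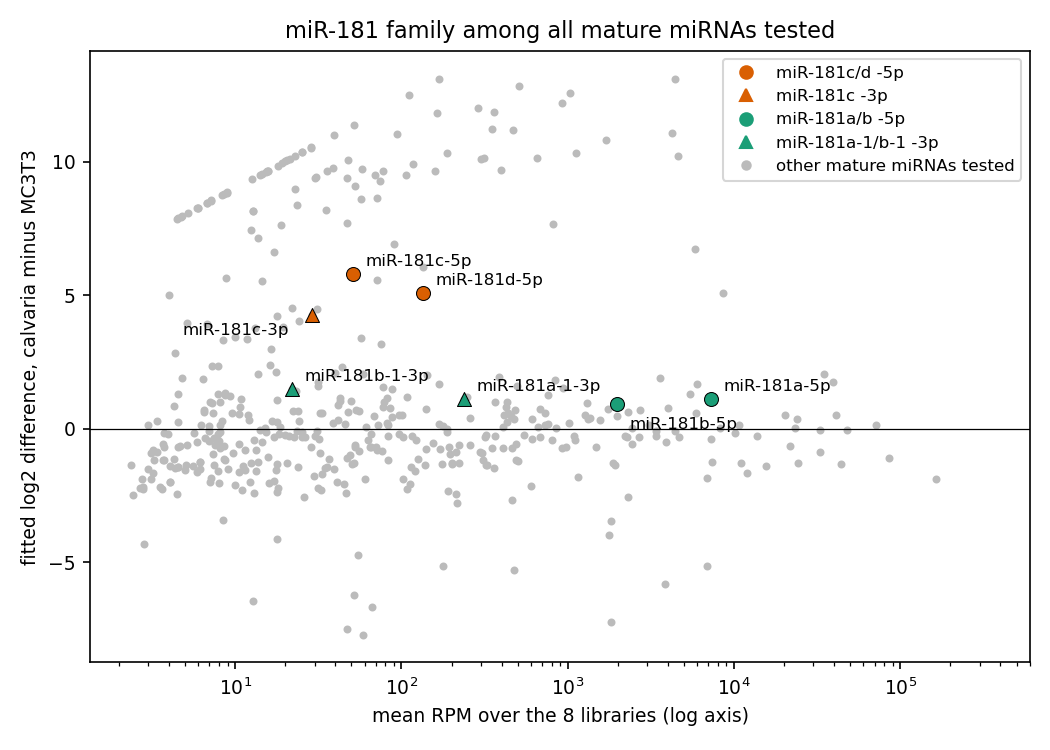
Fitted log2 difference, calvaria minus MC3T3, against mean RPM over 8 libraries (log axis) for 471 mature miRNAs, with guide arms of the family as circles and passenger arms as triangles. Arms of the c/d cluster lie between 4.27 and 5.78 and those of the a/b clusters between 0.92 and 1.48. The sloping row of grey points at upper left holds miRNAs near 0 counts in MC3T3, whose fitted difference depends on the prior count.

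miR-181c-5p, studied in rat heart as a regulator of a mitochondrial transcript, had 140.3, 134.4 and 122.8 RPM in the 3 calvaria libraries. In MC3T3 it had 2.73, 2.22, 1.61, 2.28 and 1.09 RPM at days 0, 6, 10, 17 and 24. These rested on 165 to 272 counts per calvaria library and on 11, 7, 5, 9 and 3 counts in the MC3T3 libraries. The lowest calvaria value lay far above the highest MC3T3 value, and the counting intervals of the 5 MC3T3 days overlapped one another. Summed counts gave a ratio of calvaria to MC3T3 of 64.3 (exact 95% interval 45.7 to 93.2, counting error only). The fitted log2 difference, calvaria minus MC3T3, was 5.78 ± 0.33 (SE), with an adjusted p = 5.90e-08 by edgeR (quasi-likelihood, Benjamini-Hochberg over 471 mature miRNAs). Among the MC3T3 libraries only day 0 reached 10 counts, so this arm entered the fit through its calvaria counts and its direction was largely fixed by that filter.

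miR-181d-5p, reported in human glioma to repress the DNA repair gene MGMT, had 331.8, 339.9 and 364.4 RPM in calvaria, against 11.16, 8.40, 6.23, 6.85 and 10.39 RPM at days 0, 6, 10, 17 and 24 of MC3T3. It had 19.33 to 45 counts in each MC3T3 library and so met the count minimum of 10 in both materials. Again the groups did not overlap. The ratio of summed counts was 40.0 (33.8 to 47.9), and the fitted log2 difference was 5.08 ± 0.32, adjusted p = 1.48e-07 by edgeR. Both arms were called in 21 of 21 alternatives each, though the count filter largely fixed the direction for miR-181c-5p. Their log2 differences ranged between 4.27 and 5.35 for miR-181d-5p and between 3.57 and 6.04 for miR-181c-5p. The lower end of each came from a pseudocount of 10 RPM, which exceeds most of the MC3T3 values.

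miR-181a-5p had 12197, 11470 and 11106 RPM in calvaria, against 2567, 2720, 2943, 5823 and 8975 RPM at days 0, 6, 10, 17 and 24 of MC3T3. It was the 21st to 23rd most abundant miRNA in calvaria and the 25th to 44th in MC3T3. The calvaria values lay above those of all 5 days, with the day 24 library nearest. The fitted log2 difference was 1.12 ± 0.41, adjusted p = 0.0325 by edgeR. Against days 17 and 24 alone it was 0.33, adjusted p = 0.205, in a comparison where edgeR called 38.9% of 476 miRNAs higher and 32.6% lower. The call was also lost with upper quartile factors (0.66, adjusted p = 0.198), without calvaria 1 (0.0613) or calvaria 2 (0.0570) and without MC3T3 day 10 (0.0658). With the count minimum asked of 2 libraries (chosen after seeing the data) it was lost without calvaria 2 (1.18, 0.0665) or calvaria 3 (1.18, 0.0522). Over all 22 alternatives the adjusted p ranged between 0.00135 and 0.205.

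miR-181b-5p, reported to restrain NF-κB signalling in mouse vascular endothelium, had 3337, 3211 and 2524 RPM in calvaria, against 966.0, 856.4, 740.4, 1671 and 2601 RPM over the same 5 days. The groups overlapped, since the day 24 library stood above calvaria 3. The fitted log2 difference of 0.92 ± 0.41 did not pass (adjusted p = 0.0707 by edgeR). It passed in 6 of 22 alternatives, among them library totals (1.15, adjusted p = 0.0246), DESeq2 size factors (1.09, 0.0345) and leaving out day 24 (1.30, 0.00567). Against days 17 and 24 it was 0.18 (adjusted p = 0.510).

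**Figure D2:**
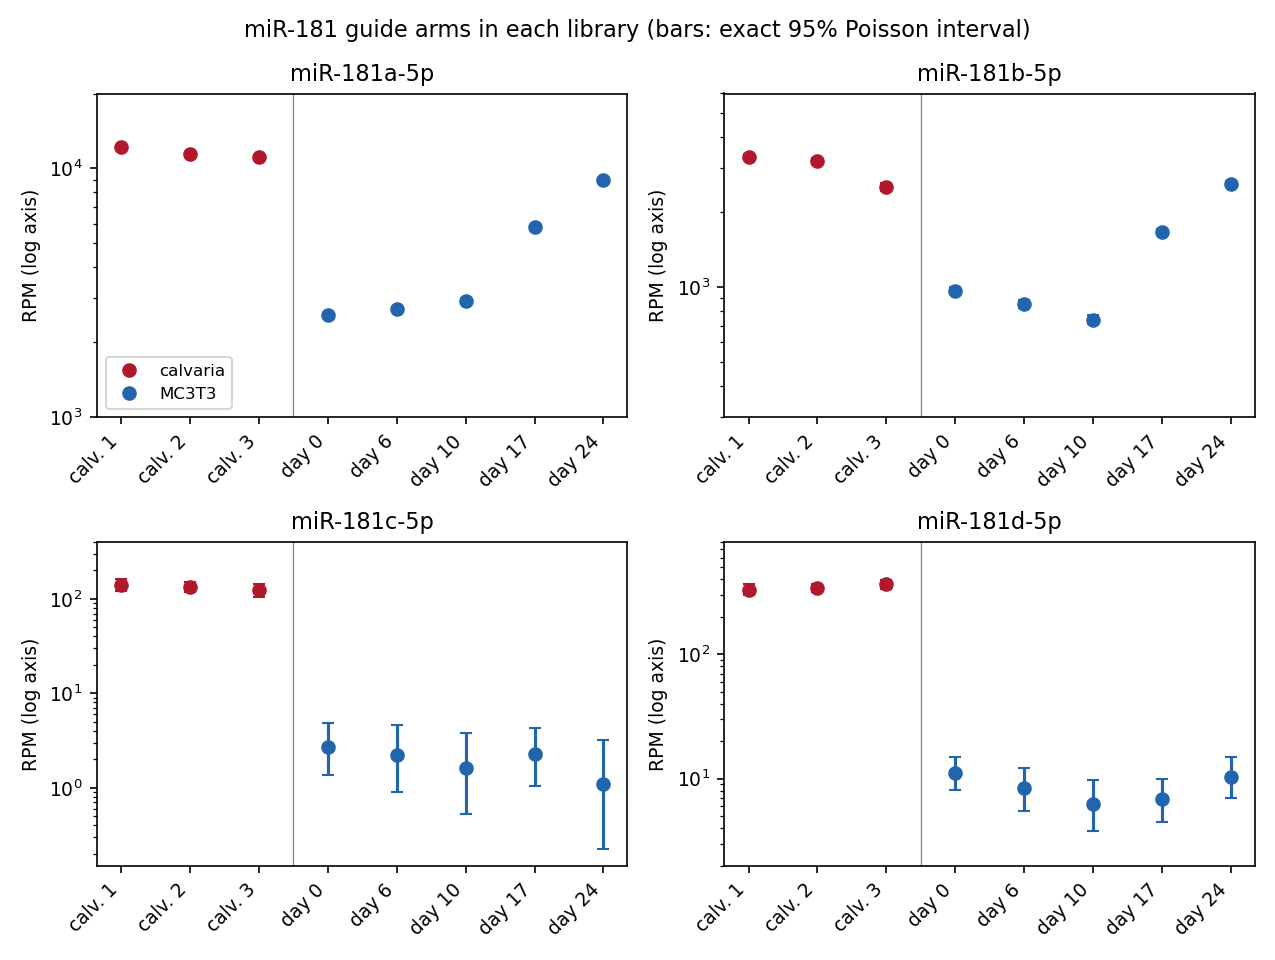
RPM of each miR-181 guide arm in the 3 calvaria libraries (red, left) and the 5 MC3T3 libraries by titled day (blue, right), on log axes that differ between panels. Bars are exact 95% Poisson intervals of the count. miR-181c-5p and miR-181d-5p stay at or below 11.16 RPM in MC3T3, while miR-181a-5p and miR-181b-5p are at their highest MC3T3 levels on day 24.

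Within the family the balance between clusters was read from counts of the same library, which removes the scaling between libraries. Of the counts of the 4 guide arms, the c/d cluster held 2.95%, 3.13% and 3.45% in calvaria. In MC3T3 it held 0.392%, 0.296%, 0.212%, 0.122% and 0.0991% at days 0, 6, 10, 17 and 24, with exact 95% intervals of 0.296 to 0.508 for the first and 0.0689 to 0.142 for the last. The means were 3.177% ± 0.254 in calvaria (SD, n = 3) and 0.2241% ± 0.122 in MC3T3 (SD over 5 days). Every calvaria share lay above every MC3T3 share, and the share at day 24 lay below that at day 0 by more than the counting intervals. Over these days the a/b sum had 3533, 3576, 3684, 7495 and 11576 RPM, and the c/d sum had 13.9, 10.6, 7.84, 9.13 and 11.5 RPM. No test was made on this share, as it is a score over chosen members.

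**Figure D3:**
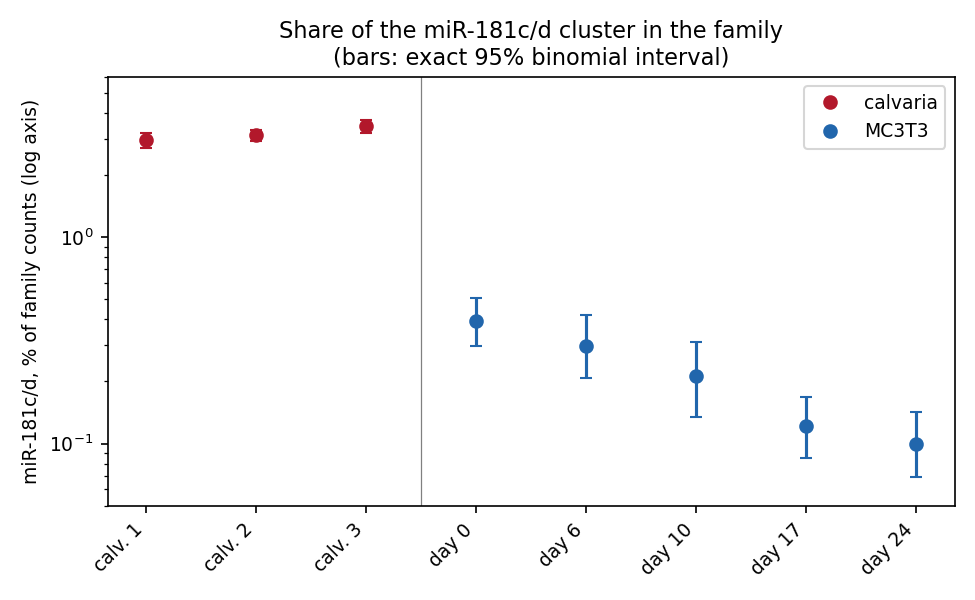
Counts of miR-181c-5p and miR-181d-5p as a percent of the counts of the 4 guide arms (log axis) in the 3 calvaria libraries (red, left) and the 5 MC3T3 libraries (blue, right). Bars are exact 95% binomial intervals. Calvaria libraries lie between 2.95% and 3.45% and MC3T3 libraries between 0.0991% and 0.392%.

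The nearest sequences allowed a look at how far the scarce arms could be set beside the abundant ones. As a percent of miR-181b-5p, its neighbour by C12U, miR-181d-5p had 9.94%, 10.6% and 14.4% in calvaria and 1.16%, 0.981%, 0.841%, 0.410% and 0.400% over the MC3T3 days. As a percent of miR-181a-5p, miR-181c-5p had 1.11% to 1.17% in calvaria and 0.0122% to 0.106% in MC3T3. Neither percentage was constant across libraries. The part of misassigned reads in the low MC3T3 counts was not tested. Fractional counts occur in the family, with 35 of its 81 nonzero values whole within 0.005, and the rule by which reads were divided was not stated in the labels or files.

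Over the MC3T3 course the a/b arms stood higher in the libraries of days 17 and 24 than in those of days 0, 6 and 10. The RPM ratio of day 10 to day 0 was 1.15 (1.11 to 1.18) for miR-181a-5p and 0.766 (0.728 to 0.807) for miR-181b-5p. On the TMM scale of the fit of calvaria against MC3T3, day 10 stood below day 0 for both arms. The values were 2957 against 3585 for miR-181a-5p and 743.9 against 1349 for miR-181b-5p, so the direction for miR-181a-5p depended on the scaling. From day 10 to day 17 the ratios were 1.98 (1.93 to 2.03) and 2.26 (2.15 to 2.37), and from day 17 to day 24 they were 1.54 and 1.56. Between the ends, day 24 over day 0, they reached 3.50 (3.42 to 3.58) and 2.69 (2.59 to 2.80). These are ratios of single libraries, and their intervals cover counting error only. For miR-181d-5p the ratio was 0.558 (0.303 to 0.957) from day 0 to day 10, 1.67 (0.899 to 3.16) from day 10 to day 24 and 0.931 between the ends. The second interval includes both 1 and the 3.05 of miR-181a-5p over the same days, so its late course could not be told from either at this depth. For miR-181c-5p the day 24 to day 0 ratio was 0.401 (0.0718 to 1.52), an interval that includes 1 but not the 3.50 of miR-181a-5p.

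**Figure D4:**
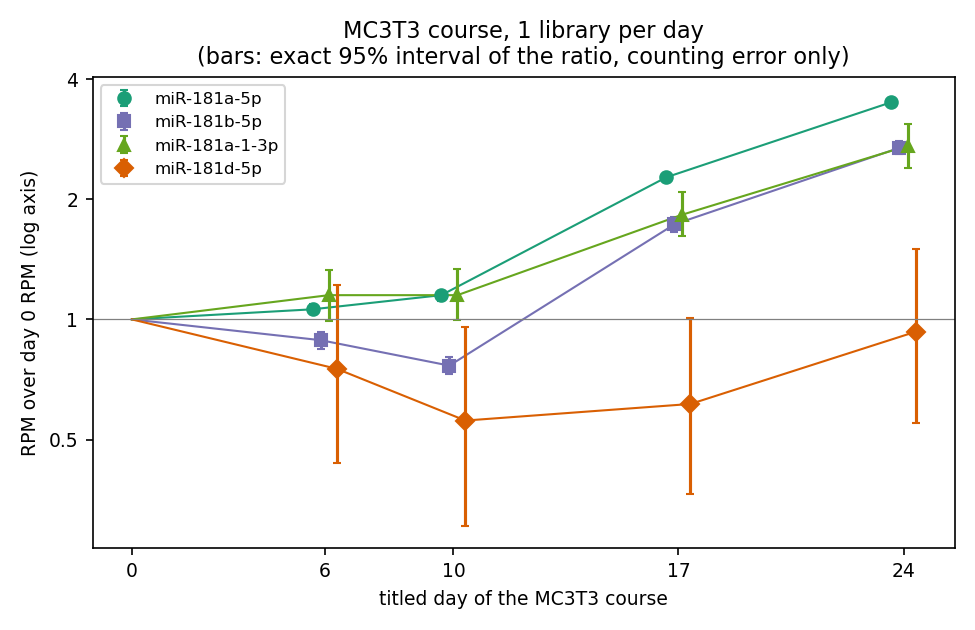
RPM over the day 0 RPM (log axis) against the titled day for miR-181a-5p, miR-181b-5p, the passenger arm miR-181a-1-3p and miR-181d-5p, with 1 MC3T3 library per day. Bars are exact 95% intervals of the ratio of counts. The a/b arms reach 2.69 to 3.50 at day 24, while miR-181d-5p stands at 0.931.

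A straight line in day did not capture this course. The fitted log2 change over 24 days was 1.58 ± 0.46 for miR-181a-5p (adjusted p = 0.108), 1.22 ± 0.55 for miR-181b-5p (0.242) and -0.52 ± 0.59 for miR-181d-5p (0.613) by edgeR over 391 miRNAs. None of these 3 arms passed; of all miRNAs tested 1.02% rose, 1.28% fell and 2.30% changed either way, and miR-181c-5p had too few counts for the fit. Leaving out either end of the course moved these values by over 1.5 times. Without day 0 the changes were 2.68 for miR-181a-5p (adjusted p = 9.65e-09) and 2.64 for miR-181b-5p (4.17e-08), where 7.11% of 380 miRNAs rose and 7.89% fell, while miR-181d-5p turned to 0.74 (0.512). Without day 24 they were 0.97 (0.464), 0.39 (0.841) and -1.74 (0.259). In the fit of calvaria against MC3T3 the TMM factor of day 0 was 0.7159, against 0.9139 to 1.1568 on the later days. That scaling lifts all day 0 values relative to RPM. The line in day used TMM factors computed from the MC3T3 libraries alone, which are not given here.

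The passenger arms, which are no members of the family list, separate loci that share a guide arm. They are shown with the bases that differ within each set in capitals (RefSeq, GRCm38.p6).
miR-181a-1-3p: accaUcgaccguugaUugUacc
miR-181a-2-3p: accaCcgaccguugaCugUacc
miR-181c-3p: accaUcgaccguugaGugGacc
miR-181b-1-3p: cucacugaAcaaugaaugcaa
miR-181b-2-3p: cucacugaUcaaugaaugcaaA
Against miR-181a-1-3p, counted from its 5′ end, miR-181a-2-3p had U5C and U16C, and miR-181c-3p had U16G and U19G. miR-181b-1-3p and miR-181b-2-3p differed by A9U and by 1 base at the 3′ end.

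Nearly all passenger counts of the a/b clusters belonged to the a-1/b-1 locus of chromosome 1. miR-181a-1-3p had 409.6, 406.6 and 329.0 RPM in calvaria, against 96.85, 111.1, 111.6, 177.4 and 263.5 RPM at days 0, 6, 10, 17 and 24 of MC3T3. miR-181a-2-3p had 1 count, at day 0, and 0 counts in the other 7 libraries, where 3 counts would have been 0.761 to 2.54 RPM. miR-181b-1-3p had 32.12, 35.84 and 48.76 RPM in calvaria and 6.44 to 20.06 RPM in MC3T3, while miR-181b-2-3p had 1.24 to 2.54 RPM in calvaria and 0 to 3.60 RPM in MC3T3. Of the counts of both b passenger arms, the b-2 arm held 3.33% to 7.32% in calvaria and 28.4% at day 0, 8.33% at day 6, 16.7% at day 10, 1.79% at day 17 and 0% at day 24 of MC3T3 (0 counts, where 3 counts would have been 1.094 RPM). The day 0 value rested on 14.5 counts and stood above the rest. How much of the guide arms came from either locus cannot be read from these shares, since passenger arms of different precursors need not be kept at the same rate.

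The passenger arms of the a-1/b-1 locus had differences between calvaria and MC3T3 of the same direction as its guide arms. The fitted log2 difference was 1.12 ± 0.34 for miR-181a-1-3p (adjusted p = 0.0139) and 1.48 ± 0.37 for miR-181b-1-3p (0.00476) by edgeR. The first lost its call with upper quartile factors (0.66, 0.121) and against days 17 and 24 (0.48, 0.107). Over days, miR-181a-1-3p had a day 24 to day 0 ratio of 2.72 (2.40 to 3.09) in RPM, a fitted change of 1.15 ± 0.42 (adjusted p = 0.153 by edgeR) which became 2.00 without day 0 (3.81e-05) and 0.53 without day 24 (0.691). Summed over libraries, miR-181a-1-3p amounted to 3.33% of miR-181a-5p in calvaria and 3.32% in MC3T3.

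The passenger arm of the c/d cluster, miR-181c-3p, had 78.61, 77.85 and 59.55 RPM in calvaria, against 3.97, 3.49, 2.90, 2.03 and 3.28 RPM over the MC3T3 days. The groups did not overlap, and the fitted log2 difference was 4.27 ± 0.33, adjusted p = 7.30e-07 by edgeR. Among the MC3T3 libraries only days 0 and 6 reached 10 counts of it, so it entered the fit through its calvaria counts, its direction was largely fixed by that filter, and the p is no support of its own. In calvaria it amounted to 48.5% to 57.9% of miR-181c-5p, whereas in MC3T3 its 8 to 16 counts per library exceeded those of miR-181c-5p on 4 of 5 days, with sums of 53 and 35 counts. Guide and passenger are used here as names of the -5p and -3p arms, and the MC3T3 counts of Mir181c did not follow them. miR-181d-3p had 1 count, in calvaria 2. Of all miR-181 passenger counts, the c/d locus held 15.0%, 15.0% and 13.6% in calvaria and 3.49%, 2.77%, 2.37%, 1.05% and 1.14% over the MC3T3 days.

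**Figure D5:**
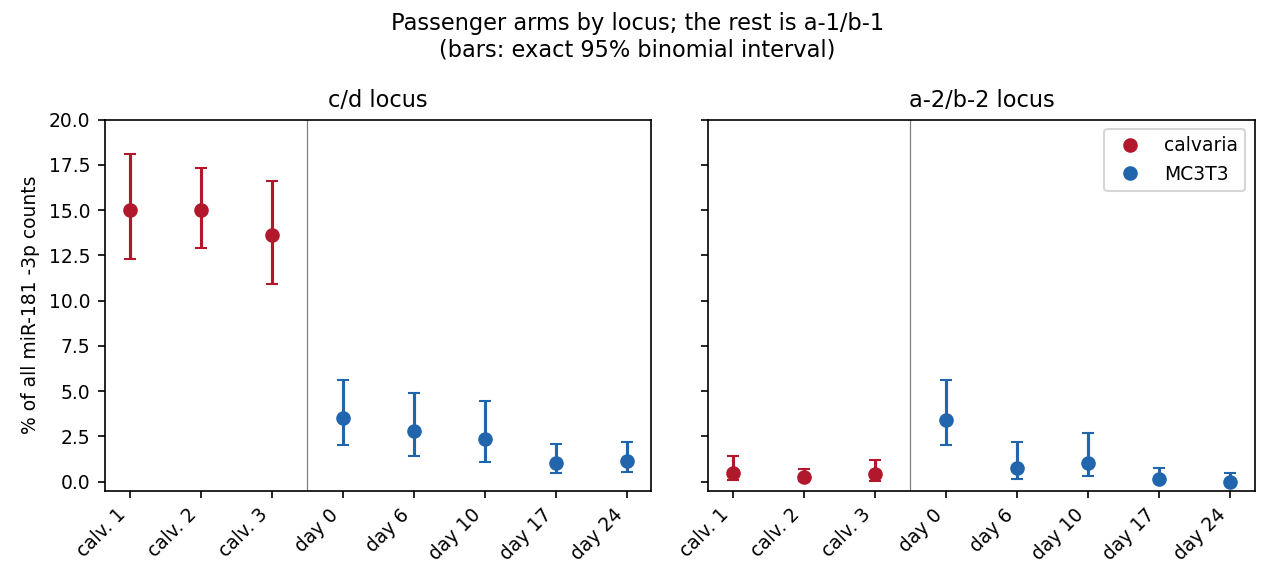
Passenger (-3p) counts of the c/d locus (left panel) and of the a-2/b-2 locus (right panel) as a percent of all miR-181 -3p counts, in the 3 calvaria libraries (red) and the 5 MC3T3 libraries by titled day (blue). Bars are exact 95% binomial intervals, and the rest belongs to the a-1/b-1 locus. The c/d share is 13.6% to 15.0% in calvaria and 1.05% to 3.49% in MC3T3.

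At the level of single precursor entries the tables do not separate the 2 a/b loci. The entries of miR-181a-5p differed by 2 to 6 counts in each of 8 libraries, so each held 50.0% of the sum. Those of miR-181b-5p were less even, with 52.4% to 54.2% at the b-2 precursor. The base that follows the guide arm is U in both a precursors, but G in Mir181b-1 and U in Mir181b-2. The part of that base in the uneven split was not tested.

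Among themselves, the members paired off when whole profiles were compared. The measure was the root mean square difference of log2(RPM + 1) over 8 libraries, each profile centred on its own mean. The distance was 0.20 between miR-181a-5p and miR-181b-5p and 0.36 between miR-181c-5p and miR-181d-5p, against 1.88 to 2.15 across the pairs. Outside the family, among 464 miRNAs, the nearest to miR-181a-5p were miR-326-3p (0.41), miR-342-3p (0.43) and miR-30b-5p (0.48), and those nearest to miR-181b-5p were miR-378d (0.45), miR-326-3p (0.45) and miR-330-3p (0.48). miR-181c-5p was nearest to miR-1193-3p (0.25), miR-598-3p (0.26) and miR-676-5p (0.27), and miR-181d-5p to miR-3072-3p (0.25), miR-223-3p (0.26) and miR-379-3p (0.26). Each of these distances was below the 0.36 between miR-181c-5p and miR-181d-5p. These 6 miRNAs had 33.5 to 62.4 RPM on average in calvaria and 0 to 0.100 RPM in MC3T3, below the MC3T3 means of 1.986 for miR-181c-5p and 8.606 for miR-181d-5p. Within the MC3T3 days alone, miR-149-5p was nearest to both miR-181a-5p (0.20) and miR-181b-5p (0.16). There miR-27a-3p (0.28) and miR-200b-3p (0.31) came next for miR-181a-5p, and miR-200b-3p (0.29) and miR-5105 (0.30) for miR-181b-5p. miR-200b-3p and miR-5105 averaged 0.694 and 0.680 RPM in MC3T3, where 3 counts amount to 0.744 to 1.094 RPM, so their profiles there rest on a few counts. The scarce miR-181c-5p and miR-181d-5p had miR-23b-5p (0.12), miR-3081-3p (0.13) and miR-98-5p (0.13), and miR-1843b-3p (0.14), miR-877-5p (0.19) and miR-28c (0.19). These 2 arms had 3 to 11 and 19.33 to 45 counts per MC3T3 library. The added 1 RPM flattens such low profiles, so their small distances do not mean a closer likeness.

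Calvaria is a mixed tissue, and part of the miRNA markers listed for other cell types differed in this comparison. Of all 471 miRNAs tested in it, 35.5% were higher in calvaria and 28.7% were lower. The 9 blood cell markers matched summed to 320 to 475 RPM in calvaria and 73.7 to 114 RPM in MC3T3. In MC3T3, miR-486-5p held 36.5 to 107 RPM of that sum, and miR-155-5p held 34.7 RPM at day 0. Of the 8 tested, 6 were higher and 1, miR-486-5p, was lower. miR-144-5p, at 0 in MC3T3, was not tested. The endothelial arms of miR-126 summed to 9028 to 20323 RPM in calvaria and 6.20 to 19.0 RPM in MC3T3, and both were higher. Cartilage markers summed to 61235 to 111611 RPM in calvaria and 18218 to 28775 RPM in MC3T3, with 4 of 4 higher. Striated muscle markers summed to 283 to 642 RPM in calvaria and 213 to 574 RPM in MC3T3. Of these, 2 of 4 tested were higher, and miR-208b-3p was at 0 in both. The other tested arms, miR-206-3p (104 to 556 RPM in MC3T3) and miR-499-5p, had log2 differences of -1.329 and -2.015 that did not pass. Nervous system markers summed to 609 to 695 RPM in calvaria and 337 to 463 RPM in MC3T3, where miR-124-3p was at 0, and 0 of 3 tested passed. Epithelial markers summed to 16.8 to 26.2 RPM in calvaria and 2.24 to 5.46 RPM in MC3T3, with 1 of 1 tested higher. Calls are those of the edgeR fit. The 6 blood markers called higher, and also miR-126-5p and miR-200b-3p, had at most 3.22 RPM in MC3T3. They entered the fit through their calvaria counts, so their direction was largely fixed by the filter. The part of other cell types in the miR-181 levels was not tested. The tables hold miRNAs alone, so osteoblast protein markers were not examined. Library totals were 1183011 to 2023036 counts in calvaria and 2742368 to 4031962 in MC3T3.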

How the data were processed

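Small RNA libraries (NEBNext kit, per the labels' protocols) gave 2 deposited tables with 1418 entries, 1 per mature arm and precursor. The raw table holds the authors' estimated counts, and the deposited RPM table equals them over the library total within 0.013 RPM. cutadapt 0.9.5, Bowtie 0.12.7 and mm10 are named, with no role or order, per the submitters' processing notes; the quantifier and the release of miRBase were not stated. MC3T3 columns carry a day 3 lower than the matching title, and titles were followed; 4 also carry "veh", with no meaning given.

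Entries were summed per mature miRNA and rounded. edgeR 4.0.16 in R 4.3.3 (quasi-likelihood, TMM, Benjamini-Hochberg, threshold 0.05) compared 3 calvaria with 5 MC3T3 libraries (10 counts in at least 3 libraries) and fitted a line in day to MC3T3 (10 counts in at least 2), whose SE includes any curvature. Each SE from edgeR was derived as the absolute log2 value over the square root of the quasi-likelihood F statistic. The code was tested on simulated data. Intervals (scipy 1.17.1) are exact at 95% and cover counting error only. Without molecular identifiers PCR copies are counted as reads, so these intervals may be too narrow. Named were the members, their passenger arms, the 3 nearest profiles per member and marker lists; 10 of 10 arms matched RefSeq sequences, and miR-142, miR-486 and miR-219 markers were matched by older names. Members and lists were chosen with earlier results of these data known. Alternatives were other scalings, tests (DESeq2 1.42.0, limma 3.58.1), filters, single entries and leaving out libraries.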

Additional observations from a re-analysis of the deposited data

How the results depend on the processing

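miR-181c-5p and miR-181d-5p were higher in calvaria in 21 of 21 alternatives each, and their log2 differences without 1 library were 5.65 to 6.04 and 4.97 to 5.35. For miR-181c-5p the direction was largely fixed by the count filter, so its 21 of 21 is no support of its own. miR-181a-5p had 0.66 with upper quartile factors, 0.33 against days 17 and 24, 0.99 to 1.53 without 1 library, and 1.18 when calvaria 2 or 3 was left out under the filter in 2 libraries. miR-181b-5p passed with library totals (1.15), limma (1.30 and 1.29 with pseudocounts of 1 and 10 RPM), the Wald test of DESeq2 (1.09) and its size factors (1.09), and had 0.76 to 1.30 without 1 library. The counts over all miRNAs, 167 higher and 135 lower, became 81 and 75 with a minimum of 100 counts, where fewer were tested (258), and 77 to 179 and 86 to 145 without 1 library. The lowest of these, without a calvaria library, also tested fewer (386 to 388); with the filter in 2 libraries, added after the data were seen, 157 to 173 were higher and 100 to 118 lower.

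With day, 4 rose and 5 fell (40 and 51 at an unadjusted p under 0.05). This became 19 and 14 with the DESeq2 Wald test, 7 and 10 with no filter, 39 and 49 on a log2 day scale, and 8 fell with single entries. It was 0 and 0 with library totals in edgeR (38 and 25 unadjusted) and in limma (47 and 24, and 47 and 23), and 0 and 1 with a minimum of 100 counts (24 and 30). Without 1 library, 0 to 27 rose and 0 to 30 fell; without day 6, 17 or 24 both were 0 in edgeR (38 and 42, 28 and 24, and 37 and 43 unadjusted). Log2 changes without 1 day were 0.97 to 2.68 for miR-181a-5p, 0.39 to 2.64 for miR-181b-5p and -1.74 to 0.74 for miR-181d-5p, the last reversed without day 0. The cause of these changes was not tested. The c/d share in calvaria was 3.54% with both arms of each locus, against 3.18% with guide arms.

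With 1 library per day, days were not compared by a test, and 3 to 11 counts of miR-181c-5p per MC3T3 library leave changes below about the width of its intervals undetectable.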
